A study of Mus musculus with 19 samples.

Results

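HoxC groups 4 to 12 are the genes Hoxc4, Hoxc5, Hoxc6, Hoxc8, Hoxc9, Hoxc10, Hoxc11 and Hoxc12 of the mouse HoxC cluster. The members were taken by name, as the probes whose RefSeq accession belongs to one of these genes, with Hoxc13 left out. No measured value entered that rule, but the set was chosen with earlier results of these data known. They are 8 of the 20660 named genes on the array, each was read by 1 probe, and all 8 entered the test. The samples were primary fibroblast cultures, grown from adult mice of 8 to 10 weeks, and the labels separate the groups by organ of origin alone: heart, kidney, liver, lung, skin, tail or gonad. Chopped tissue was digested with trypsin or collagenase, with no word on which enzyme served which organ, and the plated cells were grown for 5 days with no sort for a cell type. The sources used here name no strain or sex, do not say whether a gonad was ovary or testis, and do not say that samples of one organ came from separate animals; p-values therefore measure only the spread between these samples, which may be technical.

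Hox genes encode homeodomain transcription factors that give cells of the embryo their position along the head-to-tail axis. The genes of a cluster are switched on in the order in which they lie on the chromosome, so that genes with low numbers start at more anterior levels and genes with high numbers stay confined to more posterior levels and to the distal parts of limbs, genitals and tail. Adult fibroblasts are known to keep a Hox pattern related to the site they came from, also in culture.

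RNA was hybridised to 1-colour Agilent arrays. Scanner output for 18 arrays was analysed: 3 each of gonad, heart, liver and tail, and 2 each of kidney, lung and skin. Levels are given as the log2 of the background-corrected processed signal relative to the 75th percentile of the same array, so 0 is that percentile. A gene was counted as detected where its spot was flagged well above background. On 5 arrays (gonad 3, heart 1, kidney 1, kidney 2 and tail 2, called high-background arrays) the negative control spots lay above the scanner software's accepted range and 84.9% to 96.6% of all probes were flagged well above background, against 51.2% to 77.2% on the other 13. Both kidney arrays are among them, so for kidney the background and the organ cannot be told apart. Results of the fit on all 18 arrays are therefore set beside those of a fit on the 13 lower-background arrays, which hold 6 organs and no kidney. Probes for 15 or 16 of 16 fibroblast markers, such as collagen genes, were well above background on every array. On both kidney arrays so were 8 of 8 keratinocyte and 5 of 5 hepatocyte genes, so the flag does not tell cell types apart there.

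Read in cluster order, the 8 genes fell into a pattern by organ. Skin cultures had all of them well above background, from Hoxc4 to Hoxc12, and so did tail cultures. Gonad cultures had Hoxc4 to Hoxc11 on every array but Hoxc12 on only 1 of the 2 lower-background arrays. Lung and liver cultures had Hoxc4, Hoxc5 and Hoxc6 on every array, and lacked Hoxc8, Hoxc9 and Hoxc11 on some or all arrays, lung also Hoxc12 on 1 of 2. Heart cultures had the fewest: on the 2 lower-background heart arrays only Hoxc10 was well above background on both, and 5 members (Hoxc5, Hoxc8, Hoxc9, Hoxc11 and Hoxc12) on neither.

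Over all 7 organs, 41 of 56 combinations of gene and organ were well above background on every array of the organ. On the lower-background arrays this was 33 of 48, and 7 of 48 were detected on no array. Of all probes, 51.2% to 77.2% were flagged on each of those arrays, and this share differed by organ. It was 69.2% and 77.2% in skin, 71.9% and 75.5% in tail, and 53.9% and 54.7% in gonad. Liver had 54.1% to 65.6%, lung 51.2% and 69.3%, and heart 53.2% and 54.4%. Skin and tail thus had more of all probes flagged than heart and gonad, too. The share of all genes flagged on every array of an organ was not counted. Hoxc10 was detected on every array. Hoxc12 was detected on 3 of 3 liver arrays where Hoxc8 was detected on 0 of 3, but under a rule based on the negative control spots these counts were 2 and 1. That rule also dropped Hoxc8 on tail 3 and Hoxc4 and Hoxc6 on heart 3. It added Hoxc12 on gonad 1 and Hoxc11 on lung 1.

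**Figure D1:**
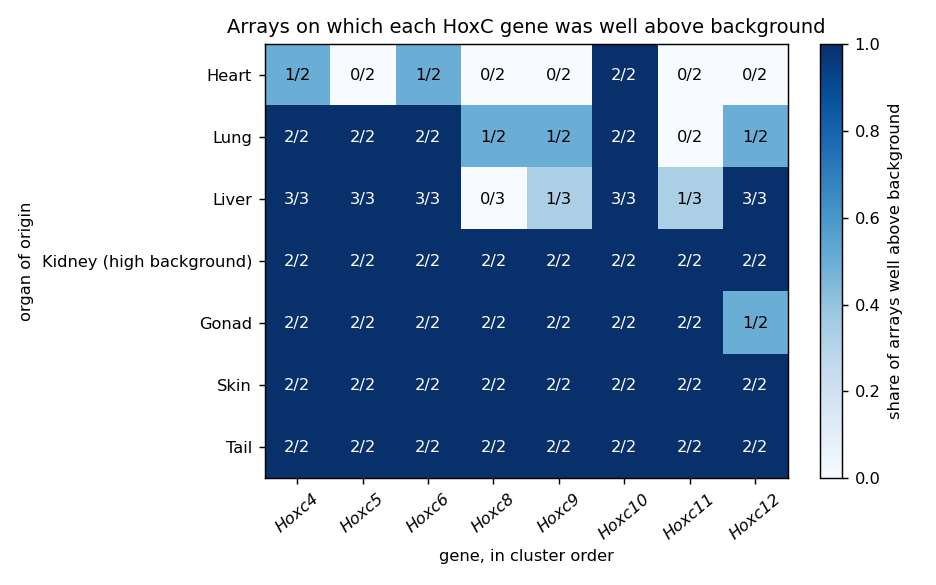
Number of arrays on which each HoxC gene (columns, in cluster order) was flagged well above background, by organ of origin (rows). Counts are over the lower-background arrays, except for kidney, whose 2 arrays are both high-background; colour gives the same share, and heart has 5 genes at 0 of 2 while skin and tail have all 8 at 2 of 2.

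Most of the 8 genes differed among organs. The moderated F test of limma over the 7 organ means, adjusted by Benjamini-Hochberg over all 20193 genes tested, called 6 of the 8 members (36.9% of all genes were called). The 2 that missed were Hoxc5 (adjusted p = 0.094) and Hoxc12 (adjusted p = 0.137). Their spot on kidney 2 carried an outlier flag and was dropped from the fit, which leaves 1 kidney value for each. On the 13 lower-background arrays 8 of 8 were called, where 53.9% of all genes were. The median distance between the highest and the lowest organ mean was 5.76 on the log2 scale over the members and 2.78 over all genes tested. On the 13 arrays these medians were 6.16 and 1.32. The call of Hoxc10 (adjusted p = 0.0351) was lost in 13 of 18 fits that left out 1 array (adjusted p 0.0514 to 0.147), and the calls of the other 5 were kept in all 18. Leaving out heart 1 alone brought Hoxc5 to an adjusted p of 1.17e-05 in the F test and Hoxc12 to 0.0113. The count of called members was then 8. The share of all genes called by the F test in that fit was not counted.

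**Figure D2:**
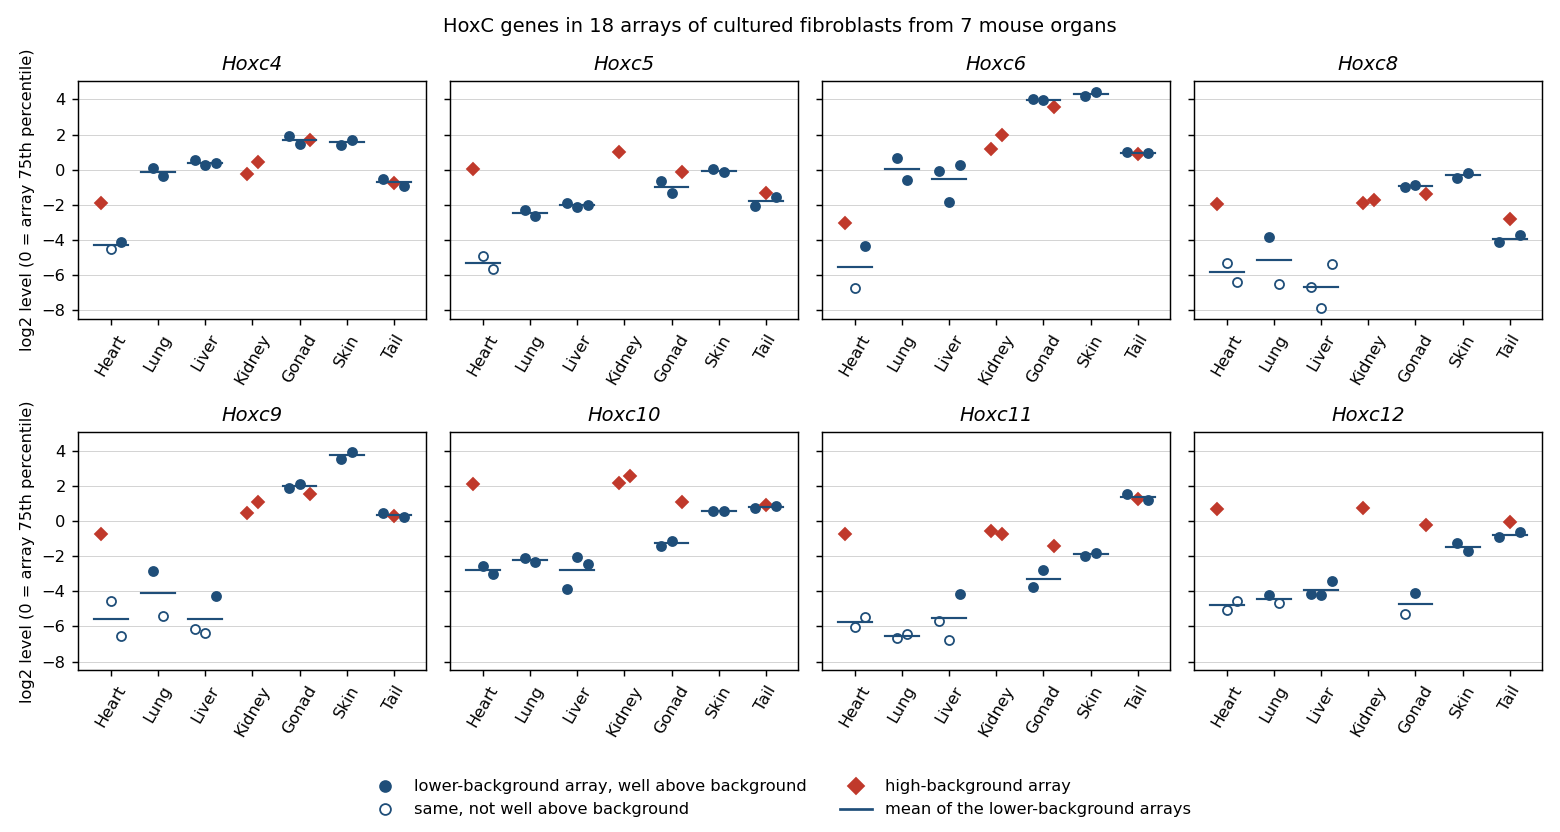
Log2 level (0 is the 75th percentile of the array) of each HoxC gene on each array, by organ of origin. Blue circles are lower-background arrays, open where the spot was not well above background, red diamonds are high-background arrays, and bars are means of the lower-background arrays; the flagged kidney 2 spots of Hoxc5 and Hoxc12 are not drawn, and heart 1 lies above both other heart arrays for all 8 genes.

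Each organ was then set against the mean of the other organs. With all arrays this gave 12 calls over the 8 genes and 7 organs, at an adjusted p under 0.05 and a log2 difference of at least 1 (13.5% of all gene and organ combinations were called). Most of that background came from kidney, where 76% of all genes were called. An organ not well above background enters the mean of the others at its measured value, and no size is given for an organ where the gene was well above background on no array. Heart was lower for 3 members (Hoxc4, Hoxc6 and Hoxc9; 2.47% of all genes were called lower), gonad was higher for 2 (Hoxc4 and Hoxc6; 2.27%) and skin was higher for 2 (Hoxc6 and Hoxc9; 0.906%). Liver was lower for 2 (Hoxc8 and Hoxc9; 0.579%), tail was higher for 1 (Hoxc11; 4.58%) and kidney for 2 (Hoxc10 and Hoxc11; 36.1%). Lung had 0 calls by limma (0.644% of all genes in either direction). In lung 4 members had an unadjusted p under 0.05, a looser threshold at which the share of all genes was not counted.

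Without the 5 high-background arrays the count was 31 calls (15.2% of combinations). Heart was lower for 8 of 8 members (6.07% of all genes) and skin was higher for 8 of 8 (21.3%). Gonad was higher for 5 and lower for Hoxc12 (4.64% higher, 19.1% lower), and tail was higher for Hoxc9 to Hoxc12, 4 members (18%). Liver was lower for Hoxc8 to Hoxc11, 4 members (3.72%), and lung for Hoxc11 (0.901%). Leaving out heart 1 alone, with kidney kept, gave 32 calls (17.5% of combinations over all genes). Over all genes the median difference of skin from the other organs was 0.37 with all arrays and 0.24 with the 13, against 1.70 and 2.34 over the 8 members. For heart with all arrays those medians were -0.09 over all genes and -1.99 over the members.

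**Figure D3:**
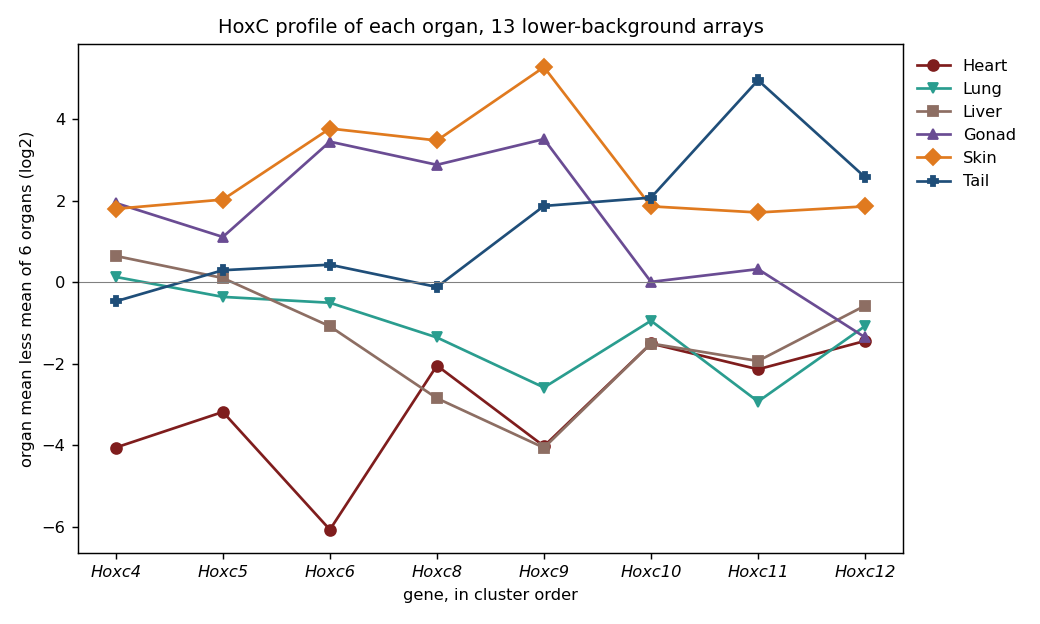
Mean level of each HoxC gene in each organ less the mean of the 6 organ means (log2), on the 13 lower-background arrays, with genes in cluster order on the horizontal axis. Skin (orange) and gonad (purple) lie above 0 from Hoxc4 to Hoxc9, tail (dark blue) peaks at Hoxc11, and heart (dark red) lies below 0 throughout, lowest at Hoxc6, with the 5 heart genes that were at background drawn at their measured values.

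The anterior members of the set are Hoxc4, Hoxc5 and Hoxc6, which in the embryo pattern the neck and upper trunk. On the lower-background arrays they were lowest in heart and highest in gonad and skin. The 250 bases before the Hoxc4 start site in RefSeq's promoter table are shown because Hoxc4 was the 1 of the 8 members matched in that table (GRCm38.p6, chr15:103034145-103034394, plus strand). The window lies inside the full annotated span of the gene, which has several transcripts. Capitals mark the only match among the motifs searched.

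Hoxc4: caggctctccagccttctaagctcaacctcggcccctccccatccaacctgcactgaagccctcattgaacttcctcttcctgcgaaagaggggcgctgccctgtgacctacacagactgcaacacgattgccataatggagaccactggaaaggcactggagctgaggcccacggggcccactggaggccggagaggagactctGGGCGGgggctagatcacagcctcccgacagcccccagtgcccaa

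The window is 62% G or C, against a median of 52.4% over 32851 RefSeq windows of the same length. Motifs were searched on both strands, and none of the letter strings used here overlaps another in the match shown. The GC box, spelled GGGCGG, was found once, 45 bases before the start, and is held by 32.7% of all windows. The TATA box, searched as TATAAA and held by 12.4% of windows, was not found in this one. The same holds for the CCAAT box (held by 33.9%). TGACAG, a motif of Meis and Pknox proteins held by 15.9%, was not found. Neither was TGATTNAT, a motif of Pbx with a Hox protein, which 2.82% of windows hold. The homeodomain core TAATTA, held by 4.84%, was not found either.

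Hoxc4 had log2 levels of 1.94, 1.45 and 1.68 in the gonad cultures and 1.42 and 1.69 in the skin cultures. In heart it was at -1.88, -4.52 and -4.09, where the first value is the high-background array and 1 of the other two was well above background. Every heart value lay below every value of the other organs. Liver was at 0.52, 0.26 and 0.41, lung at 0.10 and -0.33, tail at -0.51, -0.75 and -0.92, and kidney at -0.25 and 0.42. These organs thus lay between heart and the pair of gonad and skin.

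Heart cultures were lower than the mean of the other organs in Hoxc4 by -3.98 ± 0.41 (log2, SE, limma adjusted p = 7.72e-05), and by -4.87 ± 0.20 on the 13 arrays (adjusted p = 3.19e-06). On the 3 slides taken alone the difference was -5.16, -2.38 and -4.29. Under the rule based on the negative control spots, Hoxc4 was detected on neither heart 2 nor heart 3. Its heart difference on the 13 arrays thus rests on values near the floor. Gonad was higher by 2.08 ± 0.41 (limma adjusted p = 0.0122), a call lost without gonad 1 (adjusted p = 0.114) or gonad 2 (adjusted p = 0.0633); within slides it was 1.63 to 2.93. On the 13 arrays gonad was higher by 2.33 ± 0.20 and skin by 2.16 ± 0.20 (adjusted p = 0.000181 and 0.000308). In the order of organ means, only the last step with all arrays, tail over heart, differed by the test (2.77 ± 0.53, adjusted p = 0.0059). On the 13 arrays the step from skin to liver did so too (1.16 ± 0.23, adjusted p = 0.0068), while gonad and skin, liver and lung, and lung and tail were not called different.

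Hoxc6, which is expressed in the thoracic region of the embryo, had the widest contrast of the anterior members. It stood at 4.01, 3.97 and 3.56 in gonad and at 4.19 and 4.43 in skin. Heart values were -3.05, -6.72 and -4.35, the second of them not well above background. Even the heart array with the highest value lay below the lowest of the other organs, which was -1.85 on liver 2. Tail was narrow at 0.98, 0.88 and 0.95, lung was at 0.65 and -0.59, the other liver values were -0.05 and 0.27, and kidney was at 1.15 and 2.00.

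Heart was lower in Hoxc6 by -6.40 ± 0.60 (limma adjusted p = 3.55e-05), and by -7.29 ± 0.65 on the 13 arrays (adjusted p = 0.000149). Gonad was higher by 3.58 ± 0.60 (adjusted p = 0.004) and skin by 4.12 ± 0.71 (adjusted p = 0.0099). Without the high-background arrays these were 4.14 ± 0.65 and 4.53 ± 0.65 (adjusted p = 0.0021 and 0.0016). The skin call with all arrays rests on both skin arrays: without skin 1 the difference was 4.24 (adjusted p = 0.188) and without skin 2 it was 4.0 (adjusted p = 0.335). The heart and gonad calls were kept in all 18 fits that left out 1 array. Within slides heart lay lower by -8.68 to -4.84, gonad higher by 3.58 to 4.58, and skin higher by 4.05 and 4.13. In the order of means on the 13 arrays, skin and gonad were not called different, gonad exceeded tail by 3.02 ± 0.85 (adjusted p = 0.0193), the steps from tail to lung and from lung to liver were not called, and liver exceeded heart by 4.99 ± 0.77 (adjusted p = 0.0035). That last step was 4.16 ± 0.77 with all arrays (adjusted p = 0.0058). Under the rule based on the negative control spots, Hoxc6 too was detected on neither heart 2 nor heart 3. Its differences from heart on the 13 arrays thus rest on values near the floor.

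Hoxc5, the gene between them, was not called in any organ with all arrays. On the 2 lower-background heart arrays it was at -4.93 and -5.63, not well above background, but heart 1 read 0.04, which is above every gonad and tail value. Skin was at 0.02 and -0.16, gonad at -0.66, -1.31 and -0.15, and the liver, lung and tail arrays lay between -2.62 and -1.32. On the 13 arrays heart was called lower and skin and gonad higher (limma adjusted p = 2.04e-05, 0.000326 and 0.0031). Because Hoxc5 was below background on both of those heart arrays, folds against heart are lower bounds, taken against the dimmest signal still well above background on the same array: at least 21.7-fold for skin, 11.5-fold for gonad, 6.52-fold for tail, 5.71-fold for liver and 4.14-fold for lung (adjusted p 2.55e-05 to 0.000556).

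Hoxc8 and Hoxc9, which pattern the thorax and its motor neurons, divided the organs differently. Both were high in skin and gonad and at or near background in liver, lung and heart. Tail was intermediate.

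Hoxc9 reached 3.55 and 3.95 in skin and 1.88, 2.08 and 1.53 in gonad. Tail was at 0.44, 0.29 and 0.24, and kidney at 0.47 and 1.05. Liver was at -6.14, -6.38 and -4.27, with 1 of 3 arrays well above background, and lung at -2.85 and -5.38, with 1 of 2. Skin, gonad and tail did not overlap with liver or lung on any array. Heart was at -4.55 and -6.56 on the lower-background arrays, both not well above background, and at -0.75 on heart 1.

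Against the other organs Hoxc9 was lower in liver by -5.36 ± 0.86 (limma adjusted p = 0.0062; 0.0527 without liver 2) and higher in skin by 5.54 ± 1.02 (adjusted p = 0.0155; 0.241 without skin 1 and 0.395 without skin 2). Within slides these differences were -6.06 to -4.30 and 5.25 to 5.55. It was lower in heart by -3.44 ± 0.86 (adjusted p = 0.0389). That heart call was lost in 14 of 18 fits that left out 1 array (adjusted p 0.0502 to 0.312), and the difference was -2.14 without heart 3. The call was also lost with median scaling of the arrays (adjusted p = 0.0699) and with replicate number as a block (adjusted p = 0.065). Within slides the heart difference was -4.21, -0.08 and -5.52, with the smallest on the slide that holds heart 1. Restricted to 13 arrays, heart was called lower (adjusted p = 0.0026), the difference of liver, measured on 1 of 3 arrays, was -4.87 ± 0.63 (0.0034), that of skin 6.34 ± 0.74 (0.000759), that of gonad 4.22 ± 0.74 (0.0034) and that of tail 2.25 ± 0.74 (0.0398). In the order of organ means there, the steps from skin to gonad and from gonad to tail were not called, tail exceeded lung by 4.46 ± 0.96 (adjusted p = 0.0135), and the steps from lung to heart and from heart to liver were not called. Against heart, skin was at least 305-fold higher, gonad at least 89.8-fold and tail at least 28.8-fold.

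Hoxc8 was at -0.45 and -0.19 in skin, at -0.98, -0.86 and -1.41 in gonad and at -4.14, -2.81 and -3.69 in tail. No liver array had it well above background (-6.68, -7.89 and -5.38), and of the lung arrays 1 did (-3.84) and 1 did not (-6.48). Heart was at -5.29 and -6.40, not well above background, and at -1.93 on heart 1. Skin and gonad lay above every tail, liver and lung value.

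Hoxc8 was called lower in liver than in the other organs (limma adjusted p = 0.0198), and lower on each slide taken alone. The call was lost without liver 1 (adjusted p = 0.107) or liver 2 (adjusted p = 0.162) and with quantile normalization (adjusted p = 0.0634). With all arrays skin was at least 29.8-fold higher than liver (adjusted p = 0.0084) and gonad at least 17.6-fold (adjusted p = 0.0161). With the 13 arrays liver and heart were called lower (adjusted p = 0.0117 and 0.0487), skin was higher by 4.18 ± 0.71 (0.0029) and gonad by 3.46 ± 0.71 (0.007). There skin was at least 29.8-fold higher than liver and at least 18.2-fold higher than heart, and gonad at least 19.7-fold and 12-fold (adjusted p 0.0014 to 0.0066). Gonad exceeded tail by 3.00 ± 0.92 on the log2 scale (adjusted p = 0.0285), and the steps from tail to lung, lung to heart and heart to liver were not called. Tail and liver, further apart in that order, were (tail at least 2.46-fold higher, adjusted p = 0.0323).

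The posterior members, Hoxc10, Hoxc11 and Hoxc12, are known from the lumbar and tail levels of the axis and from the hindlimb. They were highest in tail and skin among the lower-background arrays, and the lower-background gonad arrays lay below skin for all 3. Heart 1 and, in part, gonad 3 read far above the other arrays of their organ for these genes. Heart 1 exceeded the mean of heart 2 and heart 3 by 4.91, 5.00 and 5.50 (log2) in Hoxc10, Hoxc11 and Hoxc12, and gonad 3 exceeded the other gonad arrays by 2.36, 1.89 and 4.47. Tail 2 differed from the other tail arrays by 0.09, -0.10 and 0.74. The part of the background in these values was not tested.

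Hoxc11 was the member called higher in tail with all arrays. The tail cultures were at 1.52, 1.24 and 1.17, above every array of every other organ. Skin was at -1.98 and -1.82, gonad at -3.78, -2.80 and -1.40, and kidney at -0.57 and -0.74. It was well above background on neither lung array (-6.68 and -6.41), on 1 of 3 liver arrays (-5.69, -6.79 and -4.17), and in heart on heart 1 alone (-0.76, -6.03 and -5.47).

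Tail exceeded the other organs in Hoxc11 by 4.88 ± 0.85 (limma adjusted p = 0.0027), and the call was kept in all 18 fits that left out 1 array; within slides the difference was 4.44 to 5.67. Without the high-background arrays, it was 5.95 ± 0.54 (adjusted p = 0.000135). Tail was at least 76.4-fold higher than lung and at least 57.7-fold higher than heart on those arrays (adjusted p = 0.000239 and 0.000231), and exceeded skin, the next organ, by 3.25 ± 0.70 on the log2 scale (adjusted p = 0.0109). With all arrays kidney was the next organ, and the step of 1.97 ± 1.23 was not called (adjusted p = 0.183). Below skin no neighbouring step was called on the 13 arrays, although skin as a whole lay above the other organs by 2.06 ± 0.54 (adjusted p = 0.0161), and lung, heart and liver were called lower (adjusted p = 0.0104, 0.0126 and 0.0174). Skin was at least 8.05-fold higher than lung (adjusted p = 0.0038) and at least 6.08-fold higher than heart (adjusted p = 0.0051).

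Hoxc10 was at 0.74, 0.89 and 0.84 in tail and at 0.59 and 0.58 in skin. Both skin values lay below every tail value. Gonad 1 and gonad 2 were at -1.40 and -1.15, and the lung, liver and lower-background heart arrays lay between -3.86 and -2.06. The high-background arrays gonad 3 (1.09), heart 1 (2.12), kidney 1 (2.17) and kidney 2 (2.58) lay above every skin and tail array. Restricted to 13 arrays, tail was higher by 2.49 ± 0.37 and skin by 2.24 ± 0.37 (limma adjusted p = 0.0015 and 0.0026), and heart and liver were lower by -1.80 ± 0.37 and -1.80 ± 0.32 (adjusted p = 0.0116 and 0.0113). Tail and skin were not called different (0.21 ± 0.48, adjusted p = 0.806), and skin exceeded gonad by 1.85 ± 0.48 (adjusted p = 0.0138). The kidney calls of Hoxc10 (3.25 ± 0.98, adjusted p = 0.0122) and Hoxc11 (2.58 ± 1.01, adjusted p = 0.0326) were each lost without kidney 1 or kidney 2 (adjusted p 0.0799 to 0.159), and stood at adjusted p = 0.353 and 0.664 with high background as a term in the model; within slides they were 2.96 and 4.02, and 2.55 and 3.03.

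Hoxc12, the last member, was at -0.91, -0.04 and -0.65 in tail and at -1.27 and -1.71 in skin. All 7 lung, liver and lower-background heart arrays lay between -5.07 and -3.39, and gonad 1 and gonad 2 at -5.30 and -4.12, below skin and tail without overlap. With the 13 arrays tail was higher by 3.09 ± 0.33 and skin by 2.23 ± 0.33 (limma adjusted p = 0.000276 and 0.0017), gonad, measured on 1 of 2 arrays, was lower by -1.62 ± 0.33 (adjusted p = 0.0067), and heart was called lower (adjusted p = 0.008). Tail was at least 13-fold higher than heart (adjusted p = 0.000331) and skin at least 7.90-fold (adjusted p = 0.0012). The step from skin to liver, the next organ, was 2.44 ± 0.39 (adjusted p = 0.0028), and no other neighbours were called different. With all arrays no organ was called for Hoxc12, and heart 1 (0.71) lay above every tail array and gonad 3 (-0.24) among them.

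Comparing the organs pair by pair, 47 of 168 tests were called with all arrays (17.5% over all genes). Of these, 18 involved kidney (53.9% of all genes' tests against kidney were called), and 29 of the 120 without kidney were called, where 3% of all genes' tests were. Without heart 1 the count was 103 of 168 (25.3% over all genes). Without kidney 1 only 6 members could be tested, and 27 of their 126 tests were called (3.4% over all genes), where 45 were with all arrays. Without the high-background arrays, 77 of 120 tests were called (17.2%). There, skin differed from heart, lung and liver in 8 of 8 members each, always higher (23.5%, 19.5% and 25.7% of all genes were called in either direction). Skin and gonad differed in 2, Hoxc10 and Hoxc12, both higher in skin (32.8%). Tail and gonad differed in 6 (32.3%): Hoxc4, Hoxc6 and Hoxc8 were lower in tail and Hoxc10, Hoxc11 and Hoxc12 higher. Skin and tail also differed in 6 (13.3%), with Hoxc4, Hoxc5, Hoxc6, Hoxc8 and Hoxc9 higher in skin and Hoxc11 higher in tail. Heart was below lung and below liver in 3 members each, Hoxc4, Hoxc5 and Hoxc6 (7.33% and 8.45%). Liver and lung differed in 0 members by limma on either set of arrays (0.0495% of all genes with 18 arrays, 0.641% with 13). With all arrays 0 members had an unadjusted p under 0.05 there, and on the 13 the smallest adjusted p was 0.436 for Hoxc4.

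**Figure D4:**
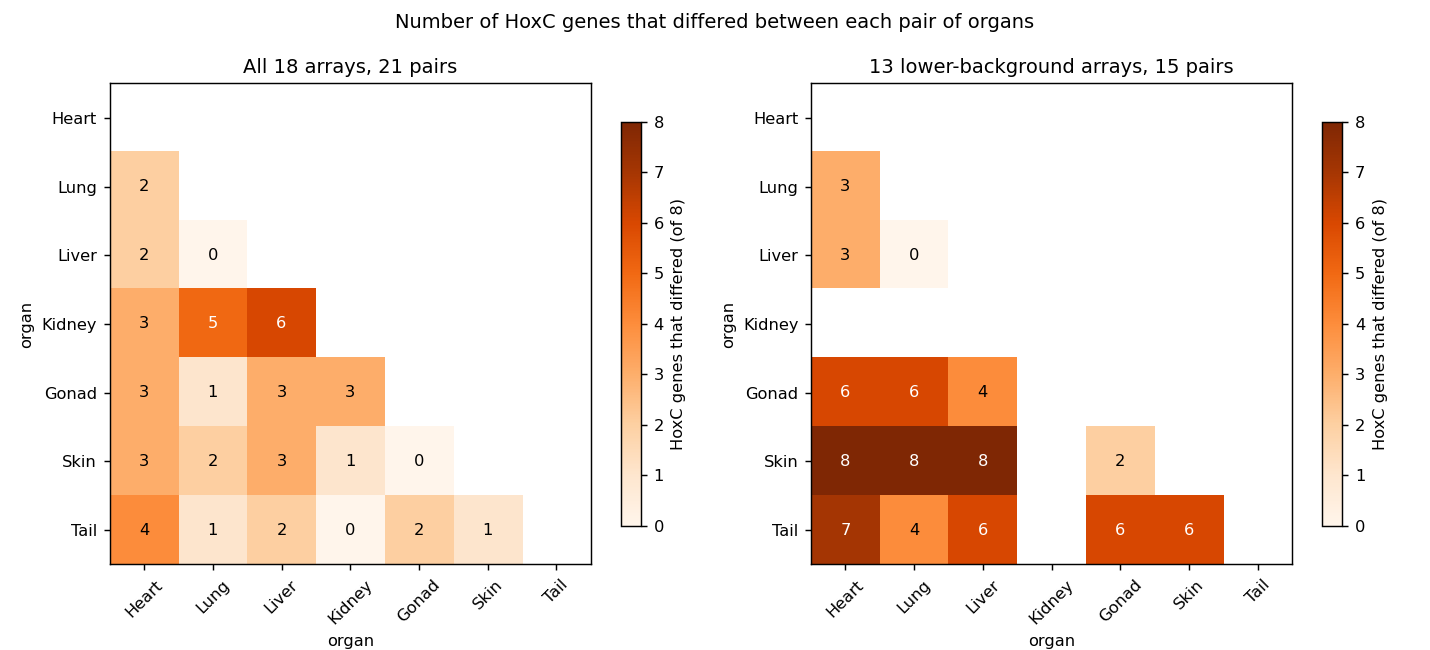
Number of the 8 HoxC genes that differed between each pair of organs (adjusted p under 0.05 and a log2 difference of at least 1), with all 18 arrays on the left and with the 13 lower-background arrays, which hold no kidney, on the right. On the right skin differs from heart, lung and liver in 8 genes each, and liver and lung differ in 0.

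Across arrays, which share organs and background, the levels of the members were correlated to different degrees. For the 7 pairs of neighbours among the members Pearson's r was 0.79 (Hoxc6 and Hoxc8) to 0.96 (Hoxc8 and Hoxc9) over the 13 arrays, and 0.70 to 0.95 for the same 2 pairs over all 18. Some pairs that are not neighbours were as high: Hoxc4 and Hoxc6 were at 0.91 and 0.92, and Hoxc10 and Hoxc12 at 0.85 and 0.92. Hoxc4 and Hoxc11 were at 0.23 and 0.16.

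Of the genes outside the Hox family, the named gene most like Hoxc9 over the 18 arrays was Ret, a receptor tyrosine kinase for GDNF family ligands (r = 0.91, and 0.91 over the 13 arrays). For Hoxc11 it was Glt28d2 (r = 0.96 and 0.96) and for Hoxc4 Lrrc4c (r = 0.93 and 0.95). For Hoxc6 it was Sh3kbp1, an adaptor of receptor endocytosis (r = 0.91 and 0.94). Ranked over the 13 arrays alone, the most alike was again Glt28d2 for Hoxc11, but Tes for Hoxc4 (r = 0.97), Prkg2 for Hoxc6 (r = 0.94) and Gldn for Hoxc9 (r = 0.94). For Hoxc12 it was Irx5, an Iroquois homeobox gene (r = 0.98).

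The paralogues of the other clusters give the HoxC pattern a frame. Of 30 other Hox genes tested, 24 were called by the F test with all arrays (36.9% of all genes were called). On the 13 arrays 27 of 28 were called (53.9% of all genes). Relative to the mean of 6 organs on the 13 arrays, the group 4 and 5 genes of HoxA and HoxB were highest in lung, Hoxa4 at 2.46, Hoxb4 at 1.63, Hoxa5 at 3.43 and Hoxb5 at 3.03, where Hoxc4 was at 0.13 and Hoxc5 at -0.36. All of these were lowest in heart. In group 9, Hoxb9 was highest in skin (3.88), as was Hoxc9 (5.28), with Hoxb9 also high in tail (2.85), while Hoxd9 was highest in gonad (4.72) and low in tail (-2.32). In group 11, Hoxa11 and Hoxc11 were both highest in tail and next in skin, with tail at 4.39 and 4.96, skin at 1.99 and 1.71, and gonad at 0.60 and 0.32. Hoxd11, the other tested gene of that group, was not called (F test of limma, adjusted p = 0.0712), with gonad at 1.35, skin at 1.25 and tail at 0.20. Hoxc13, next to Hoxc12 in the cluster, was likewise highest in tail (4.60). The differences between paralogues were not tested.

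**Figure D5:**
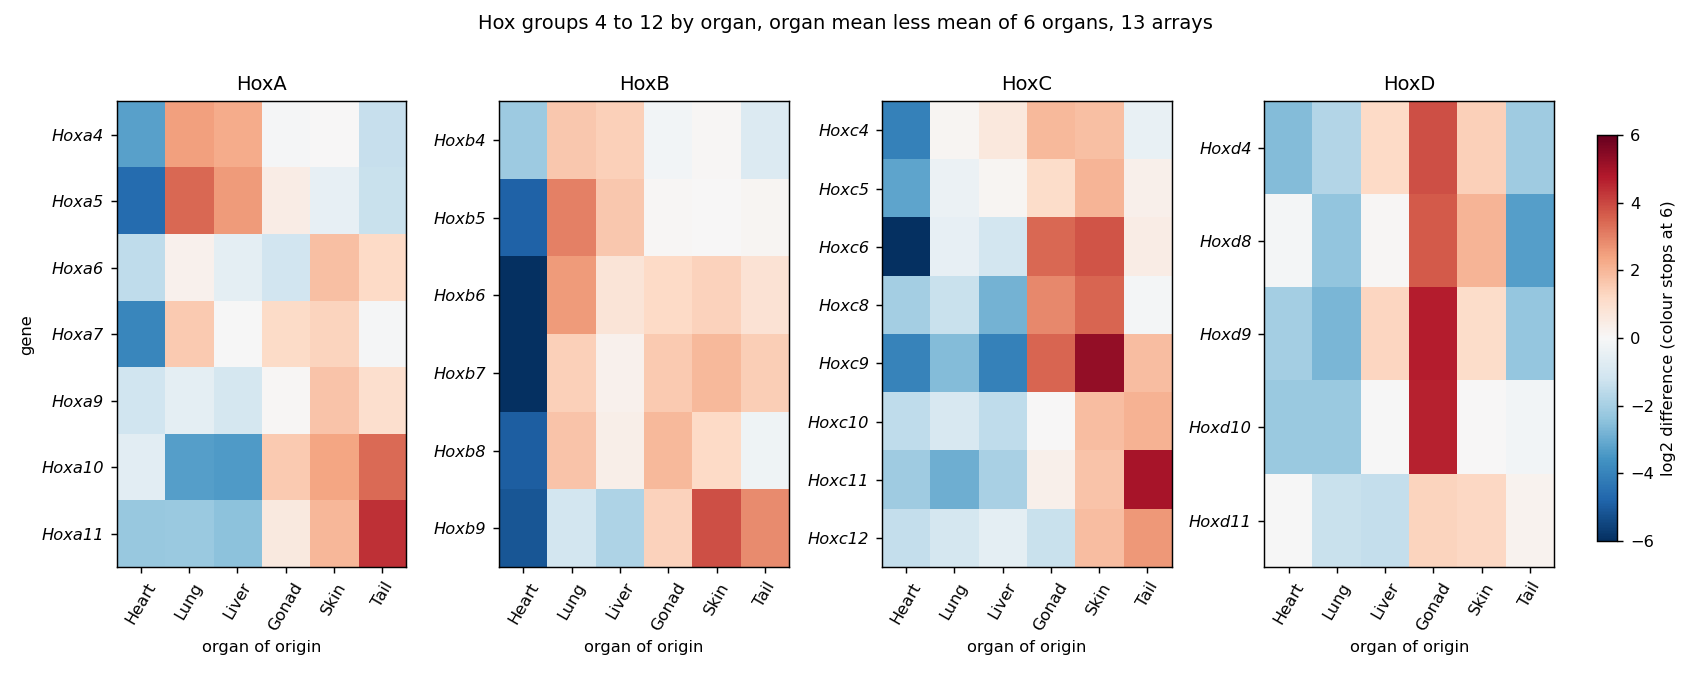
Organ mean less the mean of 6 organ means (log2, colour, red above and blue below) for the Hox genes of groups 4 to 12 in the HoxA, HoxB, HoxC and HoxD clusters, on the 13 lower-background arrays. The HoxC panel is darkest red in skin at Hoxc9 and in tail at Hoxc11, HoxA and HoxB groups 4 and 5 are red in lung, and HoxD groups 4 to 10 are red in gonad.

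Genes beside the members had smaller median ranges. Of 10 tested genes that neighbour the members or lie within the cluster, 4 were called with all arrays (Hoxc13, which is also among the other Hox genes, Itga5, Copz1 and Calcoco1), where 36.9% of all genes were. The median range over the 10 was 2.65, against 2.78 over all genes tested. With the 13 arrays 6 were called, where 53.9% of all genes were. Their median range there was 1.23 over the 10, against 1.32 over all genes tested. The ranges there ran from 0.19 for Copz1 to 7.55 for Hoxc13. Nfe2, a transcription factor of blood cells, had a range of 4.27 with skin highest (F test of limma, adjusted p = 0.0013), Gpr84 3.04 (not called, adjusted p = 0.108) and Itga5 2.56, against 0.61 for Smug1, a DNA repair gene beyond Hoxc4, and 1.45 for Calcoco1 beyond Hoxc13. Of the cofactors that bind DNA with Hox proteins (the Meis, Pbx and Pknox genes), 6 of 9 were called with all arrays and 6 of 9 on the 13 (36.9% and 53.9% of all genes). Meis1 had a range of 3.00 there, with lung highest and tail lowest. Of the Polycomb, Trithorax and related chromatin genes, 7 of 21 were called with all arrays and 6 of 20 on the 13, beside the same shares of all genes. Their median range on the 13 was 0.71.

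Summed marker signals also differed between organs. For the 16 fibroblast genes the sum was 186 to 328 times the 75th percentile in kidney and 529 to 2595 times in heart. Over the arrays of the other 5 organs it was 1594 to 2363 times. That percentile itself was 4235 and 2276 on the high-background kidney arrays and 2320 on heart 1. On the lower-background arrays it was 466 to 642. For kidney, organ and background cannot be told apart in this and the following sums. The summed signal of 8 keratinocyte genes was 11.2 to 13.5 times the 75th percentile in skin and 4.33 to 8.72 times over the other organs' arrays, with 7 of 8 genes detected in skin and Krt1 not detected on either skin array. The summed signal of 7 macrophage genes was 14.3 to 18.1 times in skin, 4.30 to 5.47 times in gonad and heart, and 7.24 to 37.6 times in liver. For 8 endothelial genes it was 33.6 to 130.5 times in gonad, 65.2 to 225 times in liver and 6.97 to 22.5 times in the other organs except skin, where it was 14.2 to 17.9 times. For 6 simple epithelial genes it was 86.9 to 106 times in kidney, 25.7 to 72.8 times in lung and 0.49 to 6.53 times in heart. In liver it was 6.57 to 67.8 times, overlapping lung, and in gonad, skin and tail 4.63 to 8.80 times. For 6 mesothelial genes it was 0.99 to 2.49 times in heart, with Gpm6a detected on no heart array, and 12.9 to 84.2 times in liver. The mesothelial sum was 29.5 to 64.8 times in lung, 17.1 to 30.1 in gonad, 17.0 to 22.3 in kidney and 5.61 to 7.61 in tail. In skin it was 4.07 to 4.25 times, with Upk3b, Lrrn4 and Gpm6a detected on neither array. For 5 germ cell genes it was 0.07 to 0.81 times in gonad, with Dazl detected on no gonad array. Their part in the HoxC differences was not tested, and in bulk cultures fewer cells of a type and less RNA per cell cannot be told apart.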

How the data were processed

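Per the submitters' processing notes the arrays were read with Agilent Feature Extraction 11.0.1.1. The deposited scanner files give, per the file headers, each spot's intensity as the authors' software computed it (processed signal, raw signal and local background) and flags for spots well above background, saturated or outlying. The deposited value table equalled the raw median signal on 18 of 18 arrays; lung replicate 2 was used from that table only. Probes were named by matching their accession to RefSeq symbols (GRCm38.p6), which covered 27235 of 55681 probes; no source here names the build of the array design.

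Processed signals were converted to log2 and centred on each array's 75th percentile. Of 20660 genes, 20193 were tested: 463 were well above background on fewer than 2 arrays and 4 had no usable value. Outlier spots were left out. Limma 3.58.1 (R 4.3.3) fitted 7 organ means with 11 residual degrees of freedom; organ contrasts, the 21 pairs and the F test were adjusted by Benjamini-Hochberg over all genes. A call needs an adjusted p under 0.05 and, for contrasts, a log2 difference of at least 1. The fit on 13 arrays had 18096 genes and 7 degrees of freedom. The number of arrays limits the precision. The fitting code was also tested, after the main fit, on simulated data built from the gene means and spreads of these arrays.

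The members and gene lists were chosen with earlier results of these data known. All 8 members are described; of each other list at most 4 called genes, paralogues of a member's group, and the genes most correlated with a member were named; Smug1, Calcoco1, Nfe2, Gpr84 and Meis1 in the 13-array values were picked after their values were seen. No spot was saturated. Alternatives covered background correction, scaling, dim filter, probe choice, variance model, slide, replicate number, value table, high-background arrays, threshold and leaving out each array.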

Additional observations from a re-analysis of the deposited data

How the results depend on the processing

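No called organ difference reversed its sign under 35 other settings. Settings that changed only the threshold or minimum fold, or left out saturated spots where none existed, could not change a sign. The 12 calls against the other organs became 23 with normexp and quantile normalization, 20 with quantile normalization, 25 with the value table, 31 without the 5 high-background arrays and 6 at an adjusted p under 0.01. They became 26 with normexp on the 13 arrays and 25 without heart 1 and kidney, 2 settings chosen after seeing the data. The 47 calls between pairs became 77 with normexp and quantile normalization, 74 with the value table, 77 without the high-background arrays and 27 at an adjusted p under 0.01. The cause was not tested. Over all genes the called share with all arrays was 13.5% against the other organs and 17.5% between pairs. It was 15.2% and 17.2% on the 13 arrays, and 17.5% and 25.3% without heart 1. For the other settings in this section, except without kidney 1, it was not counted. Changes in those counts therefore cannot be set beside all genes. Leaving out 1 array gave 9 to 32 calls against the other organs (32 without heart 1), 27 to 103 between pairs (27 without kidney 1, where 6 members were tested, and 103 without heart 1), 5 to 8 in the F test and 18 to 29 of the other Hox genes. The labels do not say whether replicate numbers pair the samples. Correlations of same-numbered deviations from the organ means ran from -0.85 to 0.78, and 7 of 18 arrays correlated best with their own number. With 2 or 3 arrays per organ the deviations within an organ depend on each other, so these values cannot decide the pairing. With a replicate block the counts were 5 in the F test, 11 against the other organs and 39 between pairs, and 19 other Hox genes were called; the heart call of Hoxc9 was lost (-3.35, adjusted p = 0.065), as was the F test of Hoxc10 (adjusted p = 0.078). Within slides 32 of 32 values of the calls against the other organs kept their direction, with Hoxc9 in heart at -0.08 on slide 2. These values come from the same arrays as the calls, so they are no independent check of direction. Detected combinations numbered 40 with a rule based on negative controls and 33 of 48 without the high-background arrays. Median scaling moved the median difference of all genes in kidney from -0.10 to 0.64. Each organ has 2 or 3 arrays, and liver, lung and heart values of Hoxc8, Hoxc9 and Hoxc11 lie at background, so their order among these organs cannot be read. The lower-background heart values of Hoxc4 and Hoxc6 lie near background as well, so the sizes of these heart differences are uncertain.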

Other observations

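Lung replicate 2 enters the value table only, as raw median signals without a background correction. Its log2 values relative to the 75th percentile of that table were 0.40 for Hoxc4, -0.48 for Hoxc6 and -3.27 for Hoxc9, beside 0.23, 0.72 and -2.38 for lung 1 and -0.11, -0.35 and -3.34 for lung 3 in the same table. Hoxc11 was at -3.22, beside -3.78 and -3.60. Raw medians still contain the local background.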
